A study of Mus musculus with 13 samples.

Results

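The aminoacyl-tRNA synthetase genes were followed in RNAseq of C2C12 myoblasts after depletion of YBX3. The members were all protein-coding genes of the deposited count table whose mouse symbol is the 1-letter code of an amino acid followed by "ars" (with or without a closing 1, 2 or 3), together with Farsa, Farsb and Eprs1. This rule uses names only and gave 38 of the 55642 genes in the table. By textbook knowledge, 21 of them serve the cytosol (symbols without a closing 2, with Gars1 and Kars1 serving both compartments and Tars3 a further threonyl enzyme), and 17 serve mitochondria (symbols ending in 2). Of the cytosolic enzymes, 8 belong to the multisynthetase complex, among them Eprs1, Iars1, Lars1, Mars1, Qars1, Rars1 and Kars1. All 38 passed the filter on low counts and were tested among 16848 genes, and the lowest count of any member in any library was 174.

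Each synthetase couples an amino acid to its cognate tRNA, using ATP, and so sets the supply of charged tRNA for the ribosome. Cytosolic and mitochondrial translation mostly use separate enzymes, both encoded in the nucleus, and several cytosolic enzymes are held together with scaffold proteins in the multisynthetase complex. When uncharged tRNA builds up, the kinase GCN2 (Eif2ak4) is activated, translation of the transcription factor ATF4 increases, and ATF4 is known to activate genes of amino acid synthesis and transport and many of the cytosolic synthetases. The synthetases of glutamine, alanine and the branched chain amino acids are of interest here because the study measured these amino acids in the same cell system after YBX3 KD.

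C2C12 is an established line of mouse myoblasts. The cells were reverse transfected with nontargeting siRNAs (control KD) or with siRNAs to the RNA-binding protein YBX3 (YBX3 KD). They were kept in growth medium with fetal bovine serum as proliferating myoblasts (0 day) or moved to horse serum medium for 1 day as differentiating myoblasts (1 day), with equal time since transfection. Each siRNA was represented at 0 day by 4 libraries with the replicate letters A to D. At 1 day, control KD had 2 libraries (letters C and D), whereas YBX3 KD had 3 (letters B, C and D). All samples are of 1 cell line, all cells were transfected, and which of the YBX3 siRNAs were used for RNAseq is not given in the sources used here.

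The libraries held 33451547 to 71811371 counts, of which 0.324 to 0.465% fell on the synthetases. Ybx3 was at 265 to 347 CPM (counts scaled to a common library size) in the 6 control KD libraries and at 28.7 to 71.5 CPM in the 7 YBX3 KD libraries, without overlap (log2 fold change -2.81 ± 0.17 SE, edgeR adjusted p = 5.26e-06). All 7 myoblast markers examined averaged over 1 CPM, with summed levels of 762 to 973 CPM in control KD and 750 to 1020 CPM in YBX3 KD. The highest were Itga7 (mean 419 CPM), Ncam1 (143 CPM) and Cdh15 (138 CPM), and the lowest was Myod1 (mean 1.76 CPM, range 0.601 to 3.32). Of the 14 markers of other cell types, Adgre1 (macrophages), Epcam (epithelium) and Snap25 (neurons) were at 0 in every library, and 3 averaged over 1 CPM, namely Cd68 (1.36 to 2.47 CPM), Krt8 (1.23 to 6.92 CPM) and Cdh5 (0.728 to 1.39 CPM). The summed level was at most 2.51 CPM for the 3 leukocyte markers, 7 CPM for the 3 epithelial, 1.46 CPM for the 3 endothelial, 0.176 CPM for the 3 adipocyte and 0.154 CPM for the 2 neuronal ones. Myog, the marker of commitment to differentiation, did not exceed 3.46 CPM in any library, those labelled as differentiating included. The summed level of 9 early differentiation genes was 336 to 396 CPM in YBX3 KD and 198 to 307 CPM in control KD, without overlap, and its part in the values below was not tested. The cell cycle inhibitor Cdkn1a (mean 230 CPM) and the troponin gene Tnnt2 (mean 67 CPM) made up nearly all of this sum, and the other 7 genes averaged at most 4.18 CPM each. In bulk RNA, fewer cells of a type and less RNA per cell cannot be told apart.

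The 4 libraries of letter D stood apart, and they were low in most synthetases. In all 4 groups the D library had the lowest level of 25 of the 38 members (65.8%), where 21.3% of all tested genes were lowest in D in all 4 groups. These were 16 of the 21 cytosolic and 9 of the 17 mitochondrial members. Averaged over the groups, the median member was at a log2 difference of -0.33 in D against the other letters, and the median of all tested genes was 0.0019. For each comparison below, the counts of members without letter D and with the replicate letter as a block are therefore also given.

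Levels differed between the compartments. Per kilobase of the canonical transcript, in control KD at 0 day, the median was 51.7 CPM per kb for cytosolic and 5.1 CPM per kb for mitochondrial members. By their means, 19 of the cytosolic members lay above every mitochondrial one, and the exceptions were Cars1 (15 ± 1.41 CPM per kb, SD, n = 4) and Tars3. The lowest of the 19, Wars1 (30.5 ± 2.21), stood above the mitochondrial Lars2 (30.1 ± 4.08) by less than the spread between libraries. Kars1, the lysyl-tRNA synthetase, was the most abundant at 90.7 ± 11.2 CPM per kb (SD, n = 4), above 96% of the tested genes. Gars1 (86.1 ± 4.26), Nars1 (83.8 ± 7.87) and Vars1 (80.6 ± 11.3) followed it by less than the spread between libraries. Tars3 was the least abundant cytosolic member, at 6.72 ± 1.3 CPM per kb (SD, n = 4), against 66 ± 12.5 CPM per kb for Tars1.

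Among the mitochondrial enzymes, the leucyl enzyme Lars2 led at 30.1 ± 4.08 CPM per kb (SD, n = 4), followed by Tars2 at 19.3 ± 3.33 and Iars2 at 16.1 ± 0.885. The asparaginyl enzyme Nars2 was the lowest member of all at 1.19 ± 0.236 CPM per kb, close to Mars2 at 1.79 ± 0.592. Dividing by the length of all exons of a gene in place of the canonical transcript kept the 19 cytosolic members above all mitochondrial ones, but it changed the order within the compartments. Vars1 then led with 53 ± 7.45 CPM per kb and Kars1 was at rank 5. Summed over members, the cytosolic enzymes took 2780 to 4200 CPM and the mitochondrial enzymes 476 to 541 CPM per library.

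**Figure D1:**
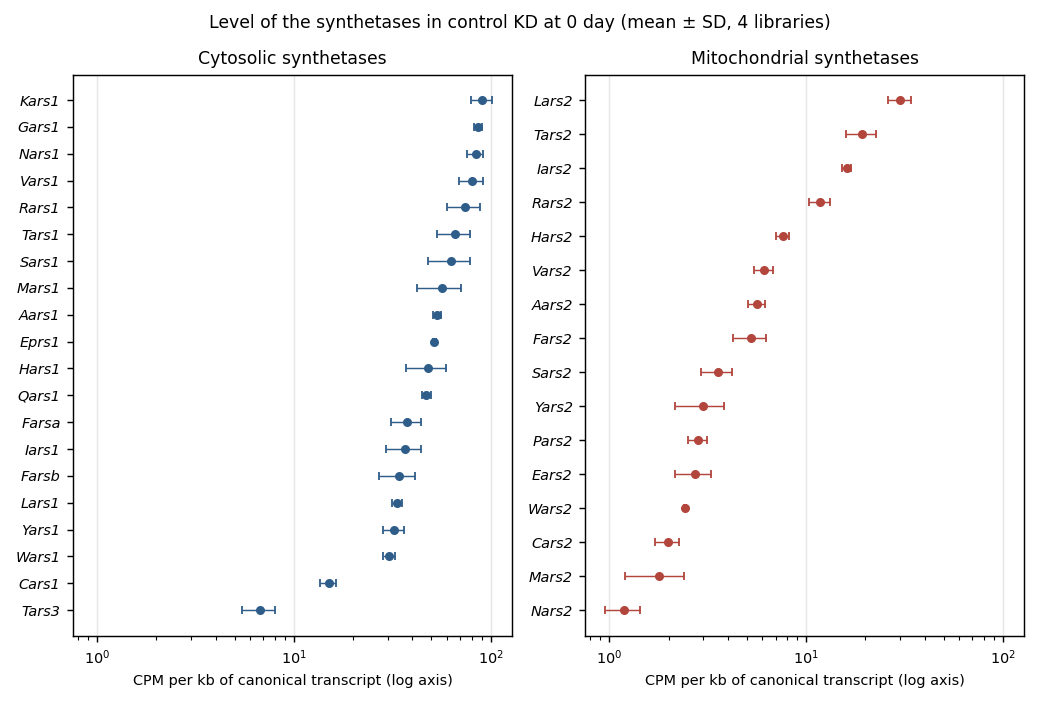
Level of the synthetases in control KD at 0 day, as CPM per kb of canonical transcript on a log axis (points, mean; bars, SD of 4 libraries). The cytosolic members (left) run from Tars3 at 6.72 to Kars1 at 90.7, and the mitochondrial members (right) from Nars2 at 1.19 to Lars2 at 30.1.

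Some of the mitochondrial values rest on transcripts that share sequence with a neighbouring gene. Each canonical transcript was cut into windows of 100 bases, and a window counted as shared when at least 95 bases matched a transcript of another gene. The share was 59.4% for Yars2 (with Dnm1l among others), 49.3% for Cars2 (Naxd), 44.1% for Iars2 (Rab3gap2) and 33% for Mars2 (Boll). Among cytosolic members it was highest for Iars1 (31.0%, the predicted gene Gm4849) and Aars1 (21.9%, Exosc6). The study names a stranded and a second library kit and does not state a strand setting for the counting. The genes named for Yars2, Cars2, Iars2 and Mars2 overlap them on the opposite strand, so their counts are uncertain there. Exosc6 overlaps Aars1 on the same strand, and Gm4849 does not overlap the Iars1 locus. Counts of Aars1 and Iars1 are uncertain where sequence is shared. Qars1, Lars1, Cars1, Gars1 and Wars2 shared no window.

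Because several cytosolic synthetases are known targets of ATF4, the start regions were searched for the core of the C/EBP-ATF response element, TGATGNAA, on both strands, from 250 bases before to 50 bases after the canonical start (GRCm39). It was present in 5 of the 21 cytosolic members and in none of the 17 mitochondrial members, and in 2.58% of 13098 tested protein-coding genes. A match in each of the 5 is shown in capitals within 30 bases of the gene's own strand, 5′ to 3′, and each reads the element on the opposite strand.
Aars1, chr8:111760472-111760501, plus strand: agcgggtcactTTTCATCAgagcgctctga
Cars1, chr7:143153782-143153811, minus strand: cggcgccgcggTTGCATCAgattctggaag
Gars1, chr6:55014945-55014974, plus strand: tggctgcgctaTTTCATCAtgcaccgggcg
Iars1, chr13:49835596-49835625, plus strand: gcctggcactgtcagtaTTGCATCAcctcc
Tars1, chr15:11399741-11399770, minus strand: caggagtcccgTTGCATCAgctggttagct

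These 5 enzymes charge tRNA with alanine, cysteine, glycine, isoleucine and threonine. A match of letters is a description and not a measured binding site. The 5 members with a match had a median log2 fold change of -0.11 (range -0.27 to -0.02) in YBX3 KD against control KD, and the 33 without one had a median of -0.09 (range -0.34 to 0.18). Between the days the medians were 0.013 and 0.0003.

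The effect of YBX3 KD was first taken over both days, to ask whether depletion of YBX3 altered the synthetase mRNAs. No synthetase was called at an adjusted p under 0.05 by edgeR's quasi-likelihood test, where 2.34% of all tested genes were called. An unadjusted p under 0.05 was reached by 5 members and by 2636 of the 16848 tested genes. Of these members 4 were lower in YBX3 KD. The log2 fold changes were small and mostly below 0: 28 members were lower and 10 higher, with a median of -0.10 against 0.0008 for all tested genes. Of the cytosolic members 19 of 21 were lower (median -0.10), including all 13 outside the multisynthetase complex (median -0.12), and 6 of the 8 members of the complex were (median -0.05). Of the mitochondrial members 9 of 17 were lower (median -0.0052). Class I and class II enzymes, which differ in the fold of the catalytic domain, had medians of -0.09 and -0.11.

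With the replicate letter as a block, 4 members were called, all lower in YBX3 KD, among them Fars2, Cars1 and Vars1. That is 10.5% of the members, and 9.78% of all tested genes were called in this fit. In it 32 of 38 members lay below 0 (median -0.13), among them all 21 cytosolic members. DESeq2 without the block called Fars2 and Wars2, 5.26% of the members beside 7.03% of all genes. The fit without the 4 libraries of letter D called Cars1, Mars1, Vars1 and Fars2, 10.5% of the members beside 12.5% of all genes. DESeq2 with the block, chosen after seeing the data, called 7 members, all lower (the same 4 as with the edgeR block, with Wars2, Wars1 and Kars1), which is 18.4% of the members beside 19% of all genes. In each of these 4 fits the share of members called stood near the share of all genes. Over both days no member had YBX3 KD libraries that did not overlap the control KD libraries, against 2.03% of all tested genes.

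**Figure D2:**
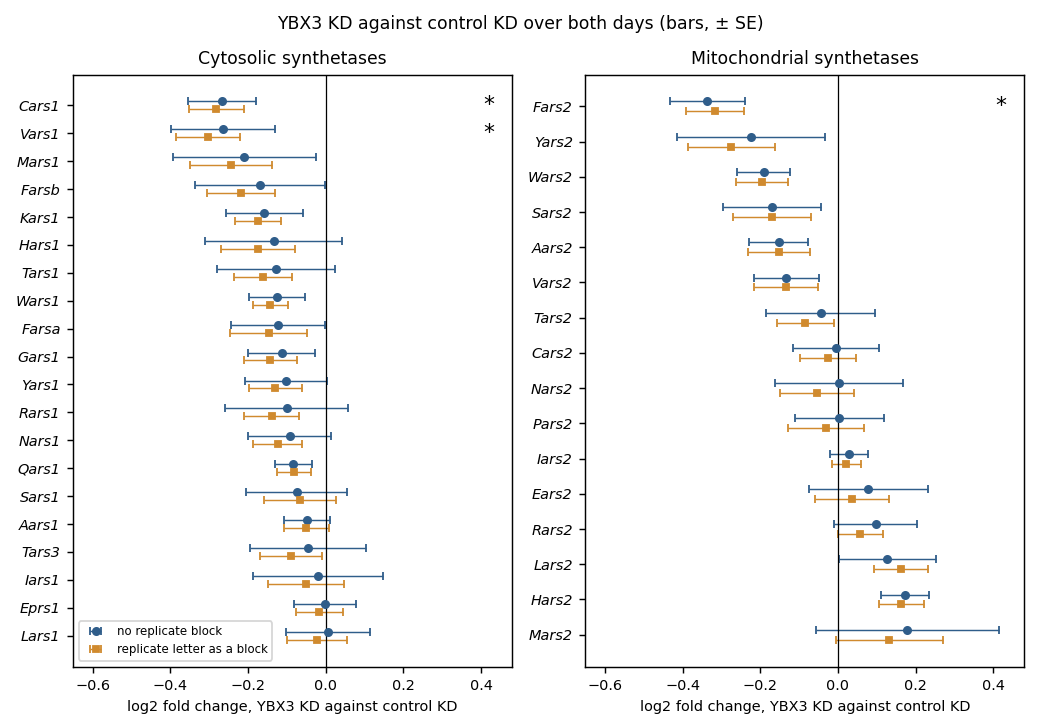
Log2 fold change of the synthetases in YBX3 KD against control KD over both days (points; bars, ± SE), without a block (circles) and with the replicate letter as a block (squares); stars mark an adjusted p under 0.05 with the block. Most cytosolic members lie left of 0 without the block, and stars stand at Cars1, Vars1 and Fars2.

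Fars2, the mitochondrial phenylalanyl enzyme (chr13:36301324-36910254, plus strand, GRCm39), had the smallest p. In control KD it was at 9.63, 10.7, 10.2 and 14.3 CPM at 0 day (A to D) and at 11.4 and 12.7 CPM at 1 day (C and D). In YBX3 KD it was at 8.77, 8.67, 8.28 and 8.98 CPM at 0 day and at 9.32, 9.48 and 10.9 CPM at 1 day (B to D). The groups did not overlap within either day, as was so for 9.1% of all tested genes at 0 day and 19.9% at 1 day. YBX3 KD was lower in 6 of 6 pairs of the same letter and day. Members with larger p, such as Gars1 and Nars1 (edgeR adjusted p of 0.579 and 0.725), were also lower in 6 of 6 pairs. The log2 fold change of Fars2 was -0.34 ± 0.10 SE (79.2% of control KD), with an edgeR adjusted p of 0.096 without the block and 0.0295 with it (log2 fold change -0.32). Fars2 was also 1 of 2 members that were highest in letter D in all 4 groups, as were 21.9% of all tested genes, and its control KD library D at 0 day was the highest of all at 14.3 CPM.

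Wars2, the mitochondrial tryptophanyl enzyme, ranged from 10.9 to 12.2 CPM (median 11.6) in the 6 control KD libraries and from 9.02 to 11.6 CPM (median 10) in the 7 YBX3 KD libraries. YBX3 KD was lower in 6 of 6 pairs, with log2 differences from -0.33 to -0.0069. At 0 day the lowest control KD and the highest YBX3 KD library both round to 11.6 CPM. The log2 fold change was -0.19 ± 0.07 SE, with an edgeR adjusted p of 0.179 (0.0939 with the block) and a DESeq2 adjusted p of 0.0429.

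Cars1, the cytosolic cysteinyl enzyme (chr7:143107440-143153828, minus strand), had the smallest p among cytosolic members. It was at 104, 104, 110 and 87.7 CPM in control KD at 0 day and at 121 and 99.9 CPM at 1 day. In YBX3 KD it was at 84.4, 90.2, 90.1 and 87.7 CPM at 0 day and at 101, 84.1 and 71 CPM at 1 day. All 6 pairs were lower in YBX3 KD, but pair D at 0 day by a log2 difference of only -0.0002, and the groups overlapped at both days. The log2 fold change was -0.27 ± 0.09 SE (83.1% of control KD), with an edgeR adjusted p of 0.145 without the block, 0.0376 with it and 0.0131 without letter D.

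Vars1 charges tRNA with valine and is the cytosolic enzyme of a branched chain amino acid outside the multisynthetase complex (chr17:35219871-35235305, plus strand). It was at 356, 350, 386 and 273 CPM in control KD at 0 day and at 404 and 322 CPM at 1 day, and at 303, 305, 309 and 250 CPM in YBX3 KD at 0 day and at 369, 302 and 197 CPM at 1 day. It was lower in 6 of 6 pairs. The D libraries were the lowest of their groups, and at each day the control KD library of letter D lay below at least 1 YBX3 KD library. The log2 fold change of -0.26 ± 0.13 SE had an edgeR adjusted p of 0.371 without the block, 0.0449 with it (log2 fold change -0.30) and 0.0301 without letter D.

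The other synthetases of the amino acids measured by the study showed smaller differences, and none was called in these fits. Qars1, the glutaminyl enzyme, lay between 125 and 142 CPM (median 130) in control KD and between 115 and 131 CPM (median 123) in YBX3 KD. Its log2 fold change was -0.08 ± 0.05 SE (edgeR adjusted p = 0.449), lower in 4 of 6 pairs. Qars1 was the steadiest cytosolic member, with a coefficient of variation of 5.02% over the 13 libraries.

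Aars1, the alanyl enzyme, ranged from 296 to 355 CPM (median 306) in control KD and from 285 to 327 CPM (median 307) in YBX3 KD (log2 fold change -0.05 ± 0.06 SE, edgeR adjusted p = 0.74). Iars1 and Lars1 charge tRNA with isoleucine and leucine, and both sit in the multisynthetase complex. Iars1 ranged from 115 to 208 CPM (median 174) and from 106 to 207 CPM (median 164), with a log2 fold change of -0.02 ± 0.17 SE (edgeR adjusted p = 0.972). Lars1 ranged from 122 to 170 CPM (median 137) and from 105 to 169 CPM (median 142), with a log2 fold change of 0.006 ± 0.11 SE (edgeR adjusted p = 0.987). For both, the groups overlapped along most of their range, and the sign of the fold change turned when single libraries were left out.

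**Figure D3:**
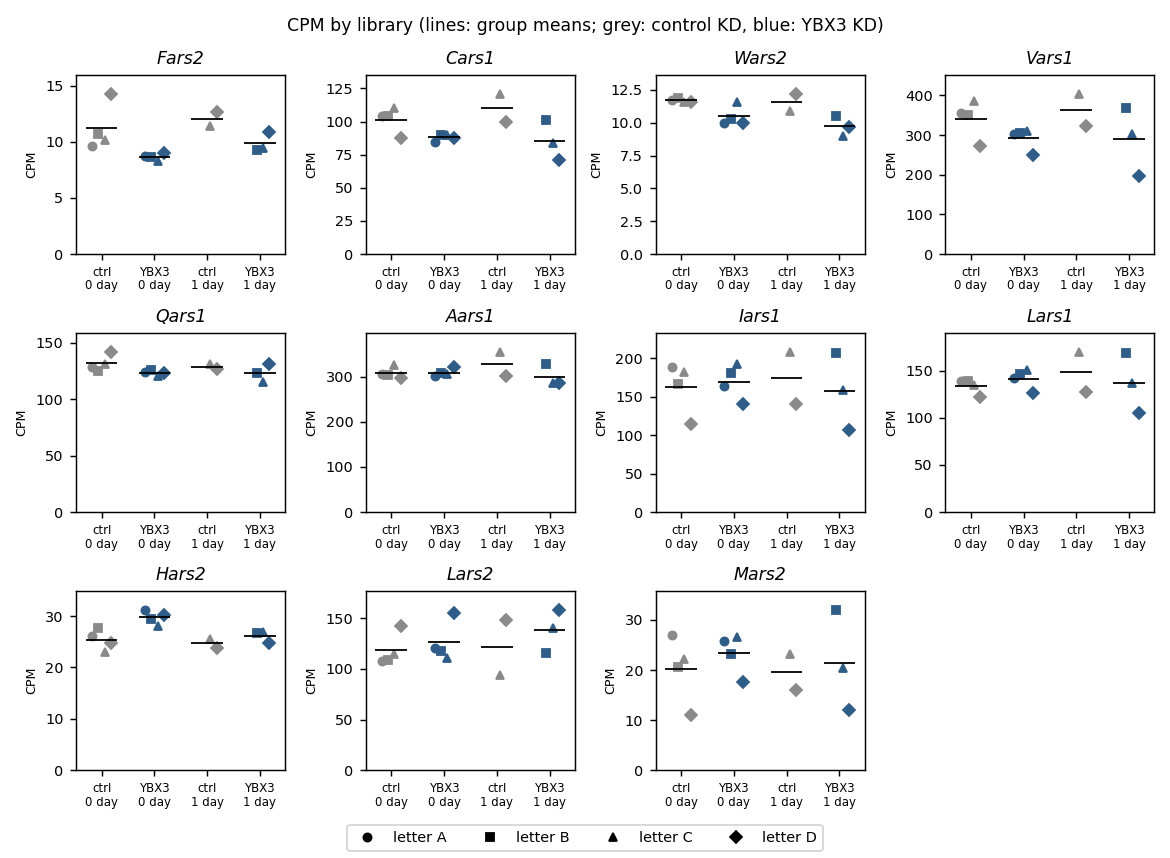
CPM of 11 synthetases in each library, by group (symbols, replicate letters; lines, group means; grey, control KD; blue, YBX3 KD). Fars2 lies at 8.28 to 8.98 in YBX3 KD at 0 day and at 9.63 or above in control KD, and the D libraries (diamonds) of Vars1, Iars1 and Mars2 are the lowest of their groups.

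Of the members higher in YBX3 KD, the mitochondrial histidyl enzyme Hars2 had the smallest p. It was at 26.2, 27.7, 23.1 and 24.7 CPM in control KD at 0 day and at 25.6 and 23.8 CPM at 1 day. In YBX3 KD it was at 31.2, 29.4, 28.1 and 30.3 CPM at 0 day and at 26.8, 27 and 24.7 CPM at 1 day. Every YBX3 KD library at 0 day lay above every control KD library of that day, beside 9.1% of all tested genes without overlap. All 6 pairs were higher. The log2 fold change was 0.17 ± 0.06 SE, with an edgeR adjusted p of 0.182 (0.0976 with the block). Its neighbour Hars1, the cytosolic histidyl enzyme on the opposite strand with an overlapping locus, had a log2 fold change of -0.13 ± 0.18 SE.

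Lars2, Rars2 and Mars2, mitochondrial enzymes for leucine, arginine and methionine, came next. Lars2 ranged from 94.2 to 148 CPM (median 112) in control KD and from 111 to 158 CPM (median 120) in YBX3 KD. Its log2 fold change was 0.13 ± 0.13 SE (edgeR adjusted p = 0.676). Rars2 ranged from 21.3 to 29.6 CPM (median 26.8) and from 22.4 to 33.2 CPM (median 28.5), with a log2 fold change of 0.10 ± 0.11 SE. Mars2 ranged from 11 to 26.9 CPM (median 21.4) and from 12 to 32 CPM (median 23.3), with a log2 fold change of 0.18 ± 0.24 SE, and was the most variable member with a coefficient of variation of 28.2%. In all 3 the groups overlapped along most of their range.

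Within a day, no member was called by edgeR. At 0 day an unadjusted p under 0.05 was reached by 2 members (Fars2 lower, Hars2 higher) and by 1861 of 16848 tested genes. The median log2 fold change was -0.04, and 0.427% of all tested genes were called. The median ranged from -0.11 (without library D of control KD at 0 day) to 0.0036 (without library C of that group) when 1 library was left out. With the block it was -0.03, and 5 members (3 lower) and 3483 of 16848 genes reached an unadjusted p under 0.05. Without letter D it was -0.08, and 7 members (6 lower) and 3986 of 17271 genes did. No member was called in either fit, beside 2.37% and 5.49% of these genes. The groups did not overlap for Fars2, Wars2 and Hars2, which is 3 of 38 members beside 9.1% of all tested genes. DESeq2 called no member at 0 day (3.13% of all genes), and DESeq2 with the letter as a block called Fars2 and Hars2 (9.36% of all genes).

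At 1 day 30 of 38 members were lower in YBX3 KD, with a median log2 fold change of -0.16 against 0.02 for all tested genes, and 0.0712% of all tested genes were called. An unadjusted p under 0.05 was reached by 3 members, all lower, and by 1312 of 16848 tested genes. DESeq2 called no member (1.1% of 13886 genes with an adjusted p). The libraries did not overlap for 6 members, all lower (all mitochondrial, among them Aars2, Fars2, Sars2, Vars2 and Wars2), beside 19.9% of all tested genes. With the block the median was -0.26, and 20 members (19 lower) and 4568 of 16848 tested genes reached an unadjusted p under 0.05. Again no member was called by edgeR (0.0712% of all genes). Without letter D, which left only library C of control KD at 1 day, the median was -0.15. DESeq2 with the block called 11 members, all lower (28.9%), beside 17.3% of all genes. Few libraries carry these values. The median was -0.02 without library D of YBX3 KD at 1 day, -0.0056 without library C of control KD at 1 day, and -0.30 and -0.32 without the control KD library D and the YBX3 KD library B of that day.

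Aars2, the mitochondrial alanyl enzyme, gave the smallest p at 1 day. It was at 25.9 and 27.6 CPM in control KD (C and D) and at 21.2, 21.9 and 20.4 CPM in YBX3 KD (B to D). Every YBX3 KD library thus lay below both control KD libraries, beside 19.9% of all tested genes without overlap at 1 day. The log2 fold change was -0.34 ± 0.11 SE, with an edgeR adjusted p of 0.494 without the block and 0.103 with it, and Aars2 was among the 11 members called by DESeq2 with the block (adjusted p = 0.0438). At 0 day it was at 24.6, 26.6, 27.8 and 22.1 CPM in control KD and at 24.5, 24.8, 22.8 and 26.2 CPM in YBX3 KD, and the groups overlapped.

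Whether the YBX3 KD effect differed between the days was tested as an interaction. No member was called by edgeR and none reached an unadjusted p under 0.05 in it. Of 16848 tested genes, 444 reached such a p and 0% were called. DESeq2 called no member either (0.00595% of 16815 genes with an adjusted p). In DESeq2 1 member and 524 genes reached an unadjusted p under 0.05. The median difference of the members' log2 fold changes (1 day minus 0 day) was -0.14 against -0.0004 for all tested genes. It was 0.04 without library C of control KD at 1 day, 0.014 without library D of YBX3 KD at 1 day and -0.30 without library B of YBX3 KD at 1 day. With the block the median was -0.25 and 4 members, all lower, reached an unadjusted p under 0.05. Without letter D the median was -0.07 and 1 member did. In both fits no member was called, beside 0% and 0.0116% of all genes.

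The step from 0 day to 1 day over both siRNAs was the second factor of the design. No member was called by edgeR and none reached an unadjusted p under 0.05. Among 16848 tested genes, 477 reached such a p and 0% were called. With DESeq2 no member was called or reached an unadjusted p under 0.05. It called 0.0119% of 16779 genes with an adjusted p, and 637 genes reached an unadjusted p under 0.05. The members split into 21 higher and 17 lower at 1 day, with a median log2 fold change of 0.0081 (0.002 for all tested genes), which ranged from -0.06 to 0.08 when 1 library was left out. Both with the block and without letter D the split was 29 higher and 9 lower. With the block the median was 0.04, and 1 member and 799 of 16848 genes reached an unadjusted p under 0.05. In it 0% of all genes were called. Without letter D the median was 0.08, and 5 members (1 lower) and 2006 of 17271 genes reached such a p. Of these 17271 genes 0.932% were called, none of them a member. In the fit of all libraries the cytosolic median was 0.013 and the mitochondrial median -0.04. No member had 1 day libraries apart from all 0 day libraries, beside 0.0594% of all tested genes. Within control KD the median step was 0.06, with 32 of 38 members higher. None was at an unadjusted p under 0.05, beside 242 of 16848 genes. With the block the median step was 0.18, with 34 members higher. In it 4 members, all higher, and 1148 genes were at an unadjusted p under 0.05. Without letter D, which left only library C of control KD at 1 day, the median step was 0.12. Within YBX3 KD the median step was -0.05 with 29 of 38 members lower, and -0.06 with the block, but without letter D it turned to 0.05 with 28 members higher. In YBX3 KD 3 members, all lower at 1 day (Aars2, Hars2 and Cars2), and 721 of 16848 genes reached an unadjusted p under 0.05. No member was called by edgeR or DESeq2 in either step, and edgeR called 0% of all genes in each.

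The members with the smallest p for the day were lower at 1 day in the case of Cars2, Hars2, Vars2 and Aars2, all mitochondrial. Cars2, the mitochondrial cysteinyl enzyme, ranged from 11.8 to 17 CPM (median 16.2) in the 8 libraries at 0 day and was at 15.1, 12.9, 14.3, 13.2 and 10.2 CPM at 1 day. Its log2 fold change was -0.23 ± 0.11 SE, with an edgeR adjusted p of 1. Hars2 ranged from 23.1 to 31.2 CPM at 0 day (median 27.9) and from 23.8 to 27 CPM at 1 day (median 25.6), with a log2 fold change of -0.12 ± 0.06 SE. For Vars2 and Aars2 the log2 fold changes were -0.09 ± 0.09 SE and -0.08 ± 0.08 SE. All of these ranges overlapped between the days.

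Higher at 1 day, by the same ranking, were Fars2, Gars1, Wars1 and Sars1. Gars1, the glycyl enzyme of both compartments, ranged from 188 to 217 CPM (median 205) at 0 day and was at 253, 228, 256, 208 and 167 CPM at 1 day, for a log2 fold change of 0.13 ± 0.09 SE. Fars2 had a log2 fold change of 0.15 ± 0.10 SE, Wars1, the cytosolic tryptophanyl enzyme, 0.10 ± 0.07 SE, and Sars1, the seryl enzyme that also charges the selenocysteine tRNA, 0.17 ± 0.13 SE. The edgeR adjusted p was 1 for each, and each overlapped between the days. The highest values of Sars1 were the D libraries of control KD at 0 day (313 CPM) and YBX3 KD at 1 day (308 CPM), and its other libraries lay between 190 and 236 CPM.

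By replicate letter, Mars2 had the lowest mean log2 difference in letter D against the other letters of its group (-0.82), followed by Mars1 (-0.66), Yars2 (-0.64) and Hars1 (-0.64). Mars1, the cytosolic methionyl enzyme, was at 184, 182 and 194 CPM in control KD A to C at 0 day and at 103 CPM in D. It was at 180 and 146 CPM in YBX3 KD B and C at 1 day and at 85.8 CPM in D. At the other end, Lars2 (0.43) and Fars2 (0.23) were highest in D in all 4 groups, and Sars1 (0.32) in 3 of 4.

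Iars2 varied least, with a coefficient of variation of 4.57% over the 13 libraries, and its D libraries lay within a log2 difference of 0.13 of the others. In all, 32 of 38 members had a mean log2 difference below 0 in letter D. The ratio of the cytosolic to the mitochondrial sum was 5.85 to 6.48 in the D libraries and 6.49 to 8.19 in the others. The D libraries held 33451547 to 41868570 counts and the others 36819569 to 71811371, so the ranges overlapped. The part of depth in these values was not tested.

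**Figure D4:**
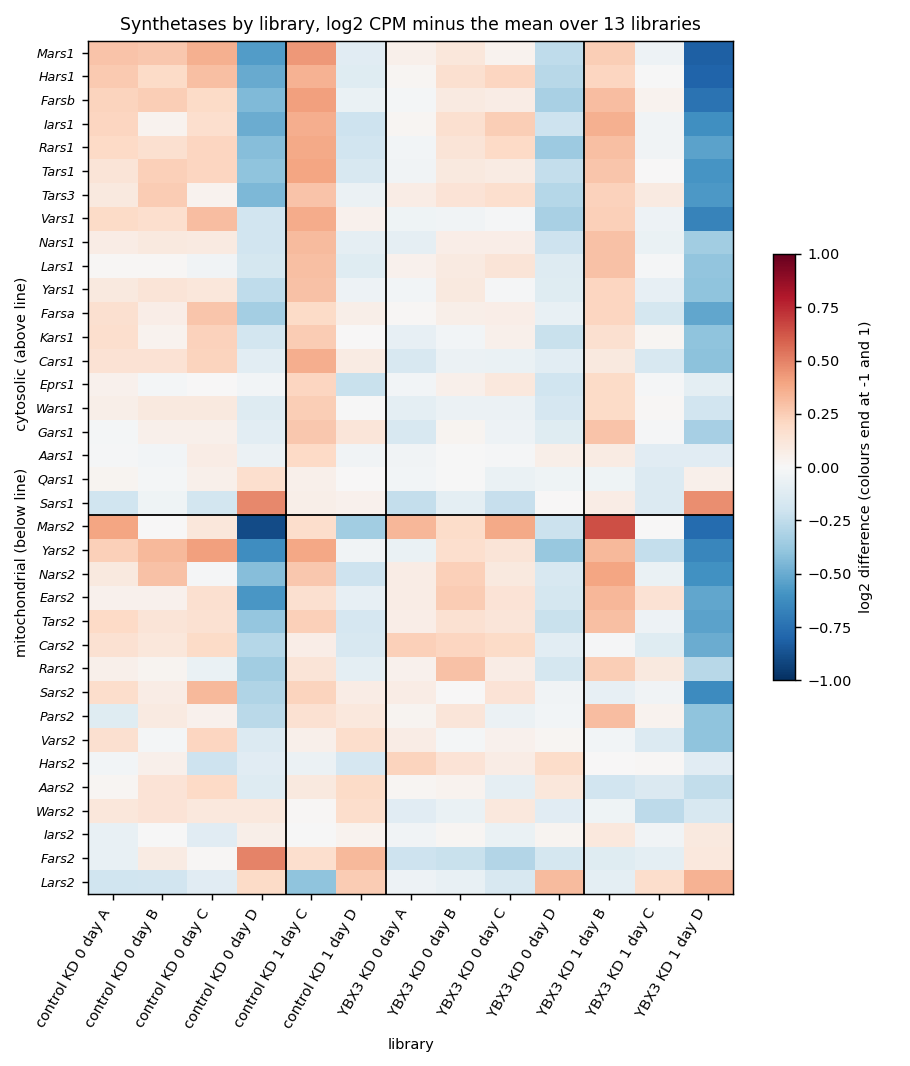
Log2 CPM of the synthetases in each library minus its mean over the 13 libraries (colours), with cytosolic members above and mitochondrial members below the horizontal line. The columns of letter D are blue for most members, most deeply in control KD at 0 day and YBX3 KD at 1 day, and Sars1, Fars2 and Lars2 are red in most of them.

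**Figure D5:**
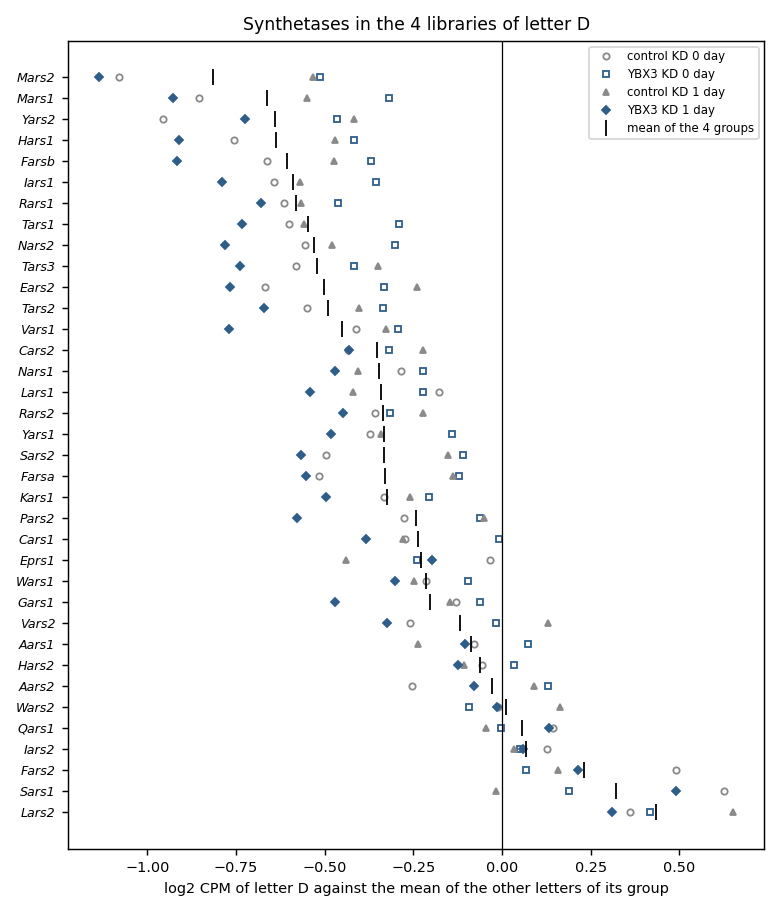
Log2 CPM of the library of letter D against the mean of the other letters of its group, by synthetase (symbols, the 4 groups; bars, their mean). Most members have a mean below 0, from Mars2 at -0.82 to Lars2 at 0.43.

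Genes that work with the synthetases were followed by lists of known role. The scaffolds of the multisynthetase complex, Aimp1, Aimp2 and Eef1e1, had log2 fold changes of -0.08, -0.10 and -0.09, and none was called. Of the 4 genes for mitochondrial glutaminyl-tRNA amidation and for formylation (Gatb, Gatc, Qrsl1 and Mtfmt), none was called and all had values below 0 (median -0.08). Of 3 genes of the selenocysteine path none was called, and Sepsecs had a log2 fold change of 0.15 ± 0.05 SE (edgeR adjusted p = 0.194). Trnt1, which adds the tRNA 3′ end, and Xpot, which exports tRNA from the nucleus, had log2 fold changes of -0.03 and -0.15 and were not called.

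Aarsd1, which removes serine misloaded onto alanine tRNA, was at 23.7 to 39.8 CPM in control KD and at 20.9 to 32.2 CPM in YBX3 KD. Its log2 fold change was -0.39 ± 0.12 SE, with an edgeR adjusted p of 0.109 without the block and 0.0372 with it. It was the 1 of 4 genes of editing in trans that was called with the block, beside 9.78% of all tested genes. Of the factors that carry charged tRNA to the ribosome, 3 of the 4 listed were tested (Eef1a2 was not) and none was called without the block. Tufm, the mitochondrial elongation factor, was at 89 to 120 CPM in control KD and at 76.9 to 106 CPM in YBX3 KD. Its log2 fold change was -0.23 ± 0.09 SE, and its edgeR adjusted p was 0.206 without the block and 0.026 with it. Tufm was thus called in the same fit that called 9.78% of all tested genes.

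Of 23 genes of uncharged tRNA sensing and the ATF4 response, 1 was called in YBX3 KD against control KD over both days, beside 2.34% of all tested genes, and with the block 3 were (1 higher, 2 lower), beside 9.78%. The gene called without the block was Sesn2, an inhibitor of mTORC1 signalling that senses leucine. It rose from 26.4 to 33.7 CPM in control KD to 34.7 to 51.5 CPM in YBX3 KD. Its libraries did not overlap, beside 2.03% of all tested genes. The log2 fold change of Sesn2 was 0.44 ± 0.09 SE (edgeR adjusted p = 0.0331). The call was lost in 8 of the 13 fits that left out 1 library (each of A, B and C of either siRNA at 0 day, and C and D of control KD at 1 day) and without the filter, with edgeR adjusted p-values of 0.0162 to 0.0945 over the 13 fits. In the list 15 genes were lower and 8 higher, with a median of -0.06 and a range from -0.43 to 0.75. Psat1 and Phgdh, enzymes of serine synthesis, had log2 fold changes of -0.43 ± 0.10 SE (edgeR adjusted p = 0.0509, and 0.0122 with the block) and -0.29 ± 0.13 SE (0.275, and 0.0469 with the block). Asns, asparagine synthetase, had -0.31 ± 0.11 SE (0.186, and 0.0768 with the block), and Atf4 itself -0.12 ± 0.13 SE (0.708). In YBX3 KD against control KD within 0 day, 19 of the 23 were lower and 4 higher (range -0.54 to 0.41). Within 1 day 12 were lower and 11 higher (range -0.43 to 2.37), and edgeR called none at either day. At 1 day against 0 day 20 of the 23 were higher, with a median of 0.16, and edgeR called none. An unadjusted p under 0.05 was reached by 3 of them, beside 477 of 16848 tested genes.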

How the data were processed

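RNA of 13 C2C12 libraries was sequenced, and reads were mapped by the authors with Salmon to GRCm39 with Gencode M30. The authors deposited 1 table of estimated counts per gene, whole numbers that were not normalized, and no other columns were used. How estimates were summed by gene and made whole, and the strand setting, are not given in the sources used here. Symbols, positions and lengths were joined by Ensembl identifier from GENCODE vM39 (54969 of 55642 identifiers matched), and sequences were read from GRCm39.

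Tests were run on the counts with edgeR 4.0.16 under R 4.3.3 (filterByExpr on the 4 groups, TMM, estimateDisp, glmQLFit and glmQLFTest, default settings) and limma 3.58.1, with DESeq2 1.42.0 as an alternative. YBX3 KD and day were terms of an additive fit, and contrasts within a day and the interaction came from a fit of the 4 groups. P-values were adjusted by Benjamini-Hochberg over all 16848 tested genes, and a gene was called at an adjusted p under 0.05. SE is the absolute log2 fold change divided by the square root of F. CPM used TMM-scaled library sizes. Windows were aligned with minimap2 2.31, and Python 3.11.15 with pysam 0.24.0 was used for sequences. The edgeR fits were tested on simulated counts that held no effect of replicate letter and larger changes than those of the members. That test does not bear on the choice of block or on small changes.

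Libraries carry a replicate letter and a title number that disagree at 1 day. After removal of group means, all 16 pairs of libraries of the same letter in different groups correlated above 0.1 over genes (0.207 to 0.843), as did 13 of 46 pairs of other letters and 10 of 16 of the same title number, so the letter was used as the block. The labels call the libraries biological replicates without naming separate cultures, so p-values measure the spread between these libraries.

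The members and the gene lists were chosen with earlier results of these data known. Full values were given for the synthetases of amino acids the study measured, for the 4 members with the smallest p in each direction in YBX3 KD over both days and between the days, and for the most and least abundant members. Mars1, Hars1, Iars2, the 1 day values of Aars2 and the list genes given with values were chosen after their values were seen. Alternatives were RLE factors, no filter, the letter or title number as a block, leaving out each library or letter D, other fits and the thresholds of the study. Some members and a sequence that these rules select are counted in the totals but are not reported here.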

Additional observations from a re-analysis of the deposited data

Results flagged for a closer look

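In the groups of 4 libraries at 0 day, the levels of 22 synthetases were examined for a library far from the other 3, which gave 44 groups. In 3 of them the gap of the outermost library to its neighbour exceeded 0.829 of the group's range, and chance gives such a gap in about 1 of 20 groups. Cars2 was at 13.4 CPM in YBX3 KD 0 day D and at 16.4 to 17 CPM in the others. Vars1 was at 250 CPM in the same library and at 303 to 309 CPM in the others. Wars2 was at 11.9 CPM in control KD 0 day B, above 11.6 to 11.7 CPM, a group of very small range. Cars2 shares 49.3% of its transcript windows with Naxd.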

How the results depend on the processing

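Without a block, edgeR called 0 members in each of the 5 comparisons, and this count was also 0 with RLE factors, without the filter, with the title number as a replicate block, with the newer quasi-likelihood fit, at the thresholds of the study, and in each of the 13 fits that left out 1 library (0 to 0 members). For YBX3 KD over both days it was 4 with the letter as a replicate block, 4 without letter D, 2 with DESeq2, and 7 with DESeq2 and the letter as a block together. The last of these gave 2 at 0 day and 11 at 1 day. The number of genes called in all went from 394 to 1647 with the letter block, 2155 without letter D, 1179 with DESeq2, 180 without the filter, 19 at the study's thresholds and 172 to 857 when 1 library was left out. At 0 day it went from 72 to 399, 948, 506, 37, 5 and 20 to 95 under the same alternatives, and to 43 with the title number. At 1 day it went from 12 to 153 with DESeq2, 2 without the filter, 0 with the title number or the study's thresholds, and 0 to 15 when 1 library was left out. Between the days it went from 0 to 161 without letter D and 2 with DESeq2. DESeq2 with the block gave 2951 over both days, 1332 at 0 day, 2347 at 1 day, 22 for the interaction and 23 between the days. The paired fit with the letter changed the call of 4 members over both days, among them Fars2, Cars1 and Vars1, and no other call in any edgeR comparison of the members. Of the fold changes given for the members chosen by amino acid or by smallest p, those of Lars1 and Iars1 over both days, both near 0, turned sign under an alternative. Lars1 (0.006) was at -0.0008 without the filter, -0.023 with the letter block and -0.0293 with DESeq2 and the block, and ranged from -0.0471 to 0.0814 when 1 library was left out. Iars1 (-0.02) was at 0.0179 with the title number as a block, and ranged from -0.1077 to 0.081. The causes were not tested. With 2 control KD libraries, the values at 1 day had the fewest libraries behind them.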
